A study of Mus musculus with 18 samples.

Results

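The secreted Wnt inhibitors Dkk3, Dkk2, Sfrp1, Sfrp2 and Wif1 were followed through the 6 sorted fractions of mouse skin. The members were the 5 genes with these names, taken by every probe set whose only gene symbol in the platform annotation was one of them. They made 5 of the 18193 genes with a single symbol on the array and held 10 probe sets. Mice that carried both K5tTA (FvB parent) and pTRE-H2B-GFP (CD1 parent) made histone H2B-GFP in cells with an active keratin 5 promoter, so only epithelial cells of that kind were labelled. Doxycycline at 1 g per kg of food shut the transgene off, and each later division diluted the label. All 6 groups carried both transgenes and received the drug, and animals without either were not analysed here. Mice were taken at postnatal day (PD) 21 after a chase that began at PD18, or at PD25 after a chase that began at PD22. From each mouse 3 fractions were sorted with antibodies to CD34 and α6-integrin and by retained GFP. They were non-bulge cells, bulge cells with 0 divisions during the chase (undivided) and bulge cells with 1 to 2 divisions (divided). Each age had 3 mice and each group 3 arrays, 18 arrays in all, and every mouse of an age gave all 3 fractions. The sources used here do not give the sex of the mice.

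Wnt proteins bind Frizzled receptors and LRP co-receptors and, through β-catenin, switch on target genes. Secreted inhibitors act before that step. The SFRP proteins, which carry a Frizzled-like domain, and WIF1 bind Wnt proteins themselves, while DKK2 binds the LRP co-receptors. DKK3 is a divergent member of the Dickkopf family whose effect on Wnt signalling depends on the cell. The bulge is the niche that holds the stem cells of the hair follicle, and Wnt signals are known for their part in starting hair growth. The comparisons below ask where in the sorted epithelium these inhibitors were expressed, whether cells that had divided still expressed them, and whether age changed either.

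The values are scanner signals already scaled by the submitters so that the 2% trimmed mean of every array was 500. They were analysed as log2(signal + 16), a scale that understates the change of dim genes. Genes entered the test if a probe set was brighter than the array's median on 3 or more of the 18 arrays, which left 11569 genes. Changes are differences of group means with the standard error (SE) of limma's fit, and a gene passed at a Benjamini-Hochberg adjusted p of 0.05 over all 11569 genes. Among the members, 8 of 10 probe sets and 3 of 5 genes (Dkk3, Sfrp1 and Wif1) met that filter. Wif1 met it only through bulge arrays, so a count of tested members that pass is a description of these genes and not evidence about the family. In RNA from sorted populations, fewer expressing cells and less RNA per cell cannot be told apart.

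The sort marker Cd34, which the sort itself used, exceeded its non-bulge level in the undivided fraction by 8.21 ± 0.46 at PD21 and by 7.42 ± 0.46 at PD25 on the log2 scale. Of 9 bulge markers, 7 were higher in the undivided fraction at each age. The hybridisation controls split the arrays into 2 sets of 9, called array sets here because no label names a batch. Set 1 held mice 1 and 2 of PD21 and mouse 1 of PD25, and set 2 held mouse 3 of PD21 and mice 2 and 3 of PD25. Each mouse lay wholly in 1 set, but the ages were unequally spread, with 6 PD21 and 3 PD25 arrays in set 1. Values within each set therefore stand beside the pooled ones.

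Dkk3 was bright in bulge fractions and dimmer in non-bulge cells. In non-bulge cells its representative probe set (1417312_at) read 282.8, 150.3 and 566.1 in mice 1 to 3 of PD21 and 451.4, 479.5 and 647.0 in those of PD25. In undivided bulge cells it read 11610.4, 7159.7 and 9584.6 at PD21 and 11701.2, 10009.2 and 9286.6 at PD25. All 6 undivided arrays thus lay above every non-bulge array, the lowest of them at 7159.7 against a highest non-bulge signal of 647.0. Divided bulge cells gave 1058.9, 579.3 and 3155.3 at PD21 but 10783.6, 7630.9 and 10090.8 at PD25. The divided PD21 arrays sat just above the non-bulge arrays of the same age with no overlap, and mouse 3 was the highest in both fractions. The divided PD25 arrays, in contrast, fell among the undivided ones. Group means on the log2 scale, in falling order, were 13.33 ± 0.17 (SD, n = 3) in undivided PD25, 13.20 ± 0.26 in divided PD25 and 13.18 ± 0.35 in undivided PD21, then 10.31 ± 1.22 in divided PD21, 9.06 ± 0.27 in non-bulge PD25 and 8.26 ± 0.90 in non-bulge PD21. The first 3 of these groups overlapped and differed by less than their spread, and divided PD21 overlapped non-bulge PD25, which overlapped non-bulge PD21. The second probe set (1448669_at), designed from the same transcript, ranged from 42.9 to 4986.3 and correlated with the first at r = 0.984 over the 18 arrays.

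Dkk2, the relative of Dkk3 that blocks the LRP co-receptors, was not seen above the array median in any of the 18 arrays. Its signals were 0.5 to 2.5 in undivided, 0.6 to 3.2 in divided and 3.0 to 30.9 in non-bulge cells at PD21. At PD25 they were 1.7 to 4.4 in undivided, 4.0 to 27.2 in divided and 2.1 to 11.2 in non-bulge cells. These values are near the bottom of the scale and give no ordered levels. In a fit of all 34945 probe sets with a single symbol, without the filter, Dkk2 passed in 0 of 12 comparisons (limma). At PD21 it differed by -0.82 ± 0.34 (adjusted p 0.198) between undivided and non-bulge cells.

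Sfrp1, which binds Wnt proteins through its Frizzled-like domain, repeated the pattern of Dkk3 over the fractions. Its representative probe set (1448395_at) read 627.7, 453.4 and 790.4 in non-bulge cells of PD21 mice 1 to 3 and 1153.2, 489.5 and 587.5 in those of PD25. Undivided bulge cells gave 17625.7, 16637.8 and 9481.6 at PD21 and 15334.5, 11278.7 and 8613.9 at PD25. No undivided array overlapped a non-bulge array at either age. Divided cells gave 1573.4, 2315.3 and 2918.5 at PD21 and 11848.0, 9746.1 and 11658.9 at PD25. The PD21 divided arrays formed a step of their own, above all 6 non-bulge arrays and below all other bulge arrays. Means ran from 13.78 ± 0.49 (SD, n = 3) in undivided PD21, 13.48 ± 0.42 in undivided PD25 and 13.43 ± 0.16 in divided PD25 to 11.11 ± 0.45 in divided PD21, 9.47 ± 0.64 in non-bulge PD25 and 9.29 ± 0.39 in non-bulge PD21. The top 3 groups overlapped, as did both non-bulge groups, while each step to and from divided PD21 exceeded the spread. The other 4 Sfrp1 probe sets also placed divided PD21 between the other bulge groups and both non-bulge groups, without overlap. One of them (1438620_x_at, a design open to cross-hybridisation) was dimmer, at 22 to 1034.

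Sfrp2, a close relative of Sfrp1, was like Dkk2 above the array median in 0 of 18 arrays. Its signals ran from 19.6 to 33.0 in non-bulge, 2.5 to 8.8 in undivided and 3.3 to 44.6 in divided cells at PD21. At PD25 they ran from 0.8 to 13.2, 3.4 to 25.5 and 3.1 to 23.7 in the same order. It passed in 0 of 12 comparisons of the unfiltered fit (limma), with -0.99 ± 0.42 (adjusted p 0.226) in undivided against non-bulge cells at PD21.

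Wif1, a secreted protein that binds Wnts through its WIF domain, was a dim gene with the same bulge bias. In PD21 mice 1 to 3 it read 13.4, 20.2 and 31.4 for non-bulge cells, 134.1, 85.5 and 254.7 for undivided cells, and 74.1, 28.1 and 126.4 for divided cells. In PD25 mice it read 23.5, 50.6 and 32.6, then 238.5, 180.5 and 68.2, then 55.5, 153.8 and 43.4 for the fractions in that order. Undivided and non-bulge arrays did not overlap at either age, whereas divided arrays overlapped the undivided ones at both ages and the non-bulge ones too. Means were 7.34 ± 0.83 (SD, n = 3) and 7.33 ± 0.71 in undivided PD25 and PD21, 6.49 ± 0.81 and 6.37 ± 0.85 in divided PD25 and PD21, and 5.65 ± 0.38 and 5.21 ± 0.35 in non-bulge PD25 and PD21. Every neighbouring pair in this order overlapped. Wif1 exceeded the array median in 8 of 18 arrays, all of them bulge arrays, so its low values carry large relative error.

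**Figure D1:**
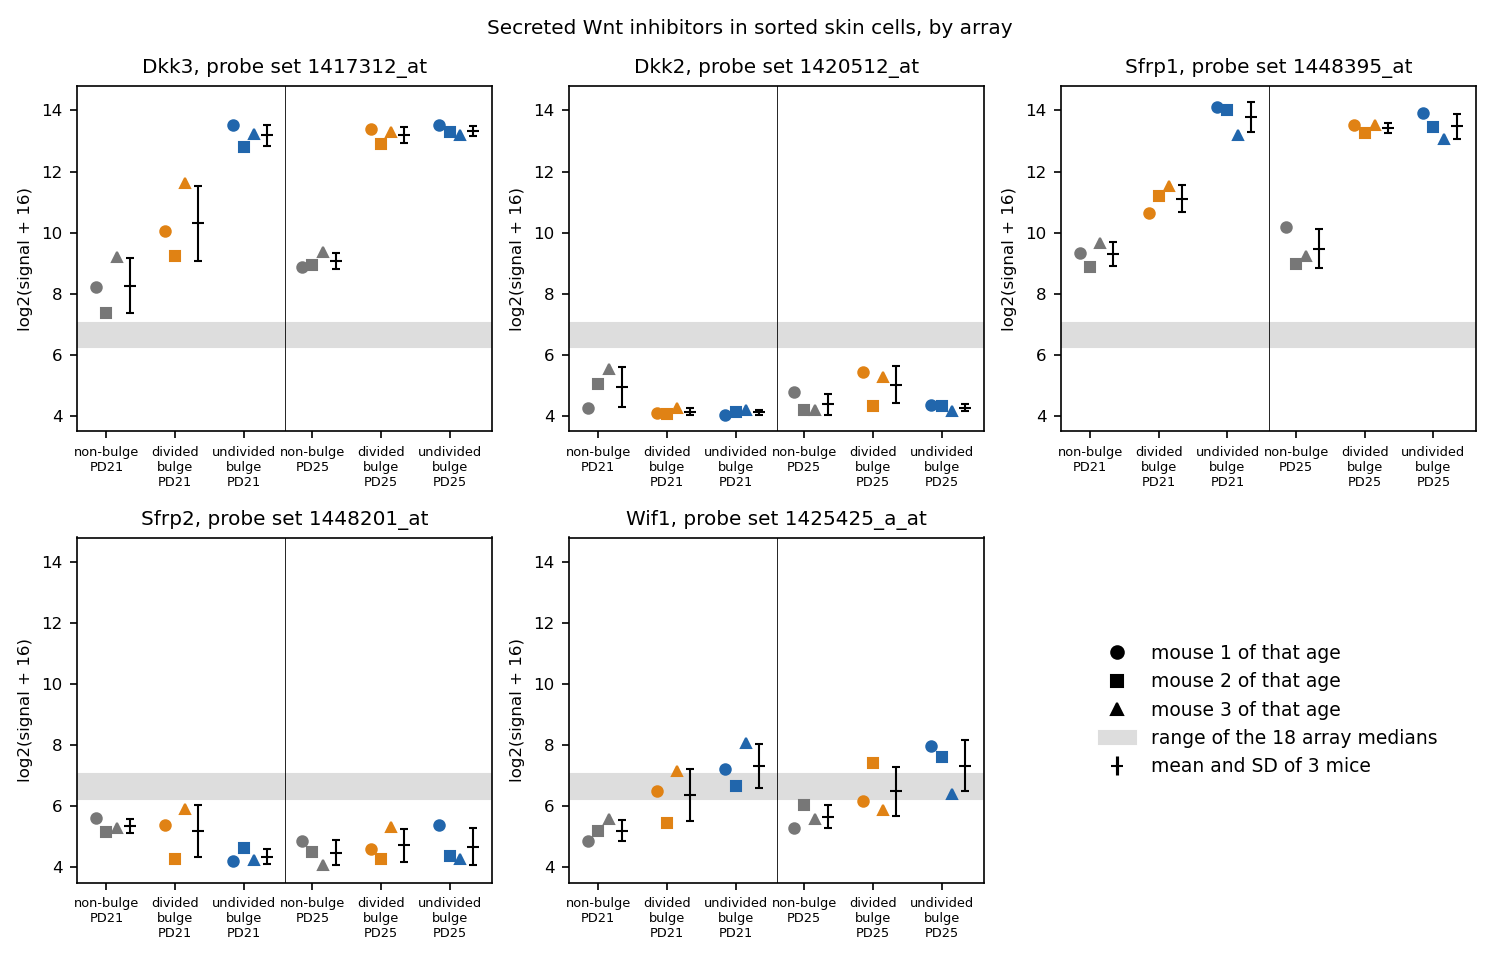
Signal of each member on each array as log2(signal + 16), by fraction and age, with one symbol per mouse, the mean and SD of 3 mice, and a grey band for the range of the 18 array medians. Dkk3 and Sfrp1 are high in undivided cells at both ages (13.18 to 13.78) and in divided cells only at PD25, while Dkk2 and Sfrp2 lie below the band on every array.

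Upstream sequence from RefSeq (GRCm38.p6) was at hand for 3 of the 5 members, Dkk2, Sfrp2 and Wif1. A pair of contrasting members are shown, Wif1 and Dkk2. Wif1 passed as higher in undivided than in non-bulge cells at PD21 but not at PD25, and Dkk2 stayed below the array median. Both are plus-strand bases that end before the annotated gene, from 250 bases before the start, with capitals for matches on either strand to the letters CTTTGA or to CTTTGT, both core letters of TCF and LEF binding motifs, or to TATAAA.
Wif1 chr10:121033754-121034003: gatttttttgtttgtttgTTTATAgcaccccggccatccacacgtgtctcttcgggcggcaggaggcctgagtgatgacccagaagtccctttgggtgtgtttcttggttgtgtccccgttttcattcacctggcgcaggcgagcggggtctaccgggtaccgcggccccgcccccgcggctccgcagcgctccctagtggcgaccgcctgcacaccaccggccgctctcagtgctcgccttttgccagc
Dkk2 chr3:132085042-132085265: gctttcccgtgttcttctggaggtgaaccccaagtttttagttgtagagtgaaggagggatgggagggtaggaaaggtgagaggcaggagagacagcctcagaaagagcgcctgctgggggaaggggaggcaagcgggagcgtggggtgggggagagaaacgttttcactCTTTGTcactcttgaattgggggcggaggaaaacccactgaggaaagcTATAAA
The Wif1 stretch of 250 bases had 62.8% G and C and 21 CpG pairs, and its only match was TATAAA on the minus strand 232 bases before the start. The Dkk2 stretch of 224 bases had 54.5% G and C and 6 CpG pairs, with CTTTGT 80 bases and TATAAA 32 bases before the start. Here the start is the end of the window of 250 bases, which for Dkk2 lay inside the annotated gene. The Dkk2 stretch shown stops at the annotated gene, so its TATAAA lies directly before that gene. The Sfrp2 window lay inside the annotated gene and is not shown. The motifs are common: among 32851 promoter windows of 250 bases, 13.8% held CTTTGA, 16.5% CTTTGT and 12.4% TATAAA on either strand. A match is a description of letters and was not tied to expression.

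At PD21 the undivided bulge exceeded non-bulge cells in Dkk3 by 4.92 ± 0.43 on the log2 scale (30.3-fold, limma adjusted p 2.25e-08), in Sfrp1 by 4.49 ± 0.32 (22.5-fold, 1.81e-09) and in Wif1 by 2.12 ± 0.60 (4.34-fold, 0.0221). All 3 tested members rose, in a comparison in which 11.0% of all genes tested passed. Each of these 3 was higher in 3 of 3 mice. The untested Dkk2 (-0.20, -0.91 and -1.34) and Sfrp2 (-1.41, -0.52 and -1.06) read lower in mice 1 to 3, on signals below the array medians. Within set 1 the Dkk3 change was 5.36 and within set 2 it was 4.04, and Sfrp1 changed by 4.96 and 3.56, all past the threshold. Wif1 changed by 1.92 (limma adjusted p 0.149) and 2.51 (0.183) within the sets. Wif1 also missed the threshold in 4 of 18 fits that each left out 1 array, those without non-bulge mice 1 or 2 or undivided mice 1 or 3 of PD21, where it changed by 1.74 to 2.17 (limma adjusted p 0.0555 to 0.11).

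The same comparison at PD25 gave 4.27 ± 0.43 for Dkk3 (19.2-fold, limma adjusted p 1.69e-07) and 4.01 ± 0.32 for Sfrp1 (16.1-fold, 8.74e-09). These 2 of 3 tested members passed, where 10.5% of all genes did. Wif1 differed by 1.68 ± 0.60 (limma adjusted p 0.085). Wif1 passed in 5 of 31 alternative fits, by limma's adjusted p. They were those blocked by mouse (0.0307) or by array set (0.0498), with array weights (0.0139), with quantile normalisation (0.0312), and without undivided PD25 mouse 3, the lowest undivided array (2.15, 0.0398). The change between the ages in these differences was -0.65 ± 0.60 for Dkk3, -0.48 ± 0.45 for Sfrp1 and -0.44 ± 0.85 for Wif1 (limma adjusted p 1 for each). No gene of the 11569 passed for that change (0%) by limma, with 446 genes at an unadjusted p under 0.05, and its intervals for Dkk3 reached from -1.90 to 0.59 and for Sfrp1 from -1.41 to 0.44.

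Divided bulge cells were set against the same non-bulge arrays, so the comparisons share those samples and are given side by side. At PD21 divided cells exceeded non-bulge cells by 2.04 ± 0.43 in Dkk3 (4.12-fold, limma adjusted p 0.0434) and by 1.83 ± 0.32 in Sfrp1 (3.55-fold, 0.00783), and Wif1 differed by 1.16 ± 0.60 (adjusted p 1). Only 0.182% of all genes, 21 in number, passed in this comparison, and Dkk3 and Sfrp1 were 2 of them. The Dkk3 call was close to the threshold and held in 12 of 31 alternative fits. Among those 12 were the fits blocked by mouse (limma adjusted p 0.000456) and by array set (0.0107). The Dkk3 call was lost in 14 of 18 fits that each left out 1 array, with a change of 1.38 (limma adjusted p 0.346) without divided PD21 mouse 3 and 1.60 (0.501) without non-bulge PD21 mouse 2. The Sfrp1 call was lost in 2 of the 18, without the same arrays (1.62 each, adjusted p 0.101 and 0.0942). Within sets 1 and 2 Dkk3 changed by 1.84 (0.0966) and 2.45 (0.0237), and Sfrp1 by 1.81 (0.00717) and 1.86 (0.0964), by limma's adjusted p.

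At PD25 divided cells held Dkk3 and Sfrp1 near the undivided level, and Wif1 lay between the undivided and the non-bulge mean. Divided cells exceeded non-bulge cells by 4.14 ± 0.43 in Dkk3 (17.6-fold, limma adjusted p 4.69e-07) and by 3.96 ± 0.32 in Sfrp1 (15.6-fold, 1.39e-08), with 0.83 ± 0.60 in Wif1 (0.562). In this comparison 2 of 3 tested members and 8.87% of all genes passed. The change of these differences between PD21 and PD25 was 2.14 ± 0.45 for Sfrp1 (limma adjusted p 0.0148), 2.09 ± 0.60 for Dkk3 (0.0837) and -0.33 ± 0.85 for Wif1 (0.954), so that 1 of 3 tested members passed beside 1.63% of all genes. Dkk3 passed as well in the fit blocked by mouse (limma adjusted p 0.00364). Without divided PD21 mouse 1 the Sfrp1 value was 1.90 (limma adjusted p 0.0638), and within the sets it was 1.53 (0.135) and 2.41 (0.344).

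**Figure D2:**
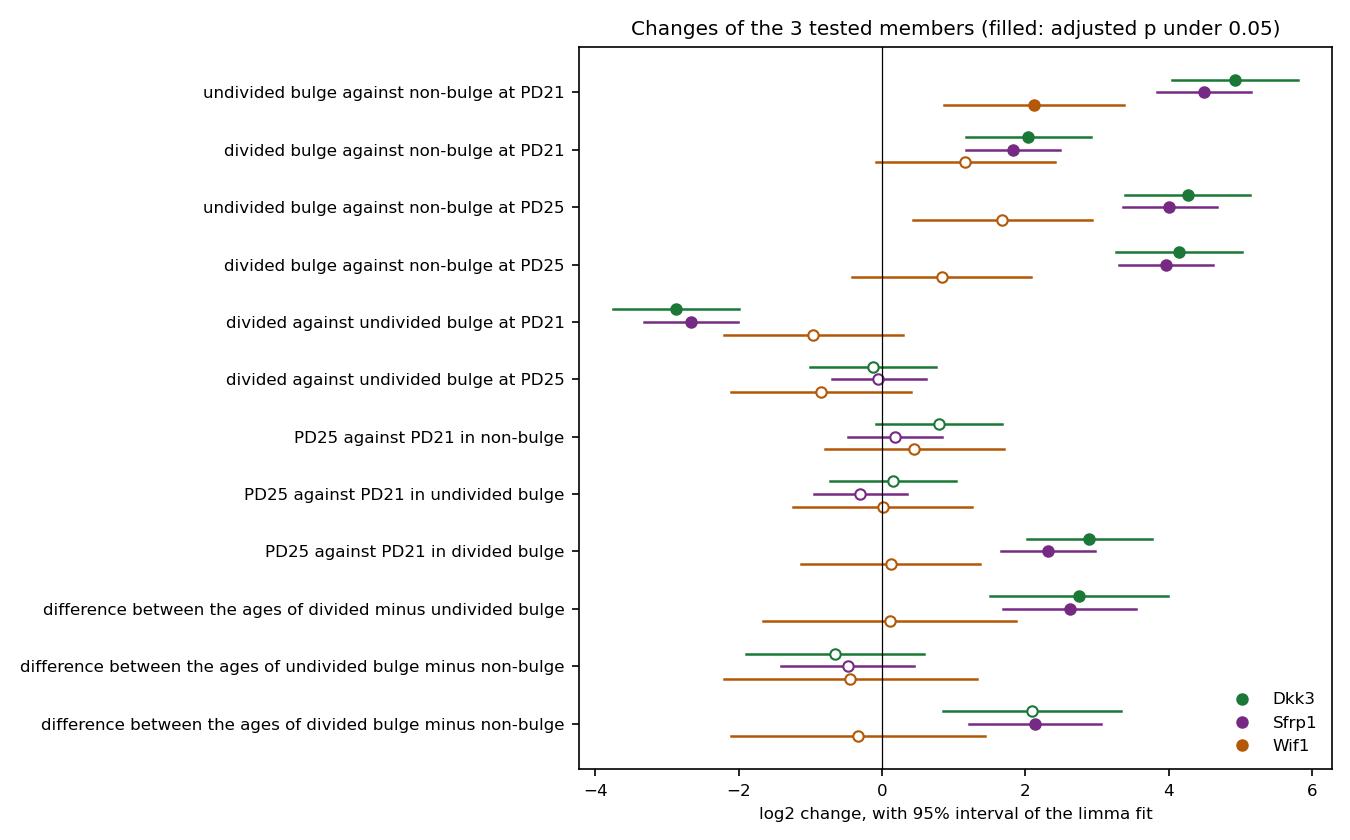
Differences of Dkk3, Sfrp1 and Wif1 in the 12 comparisons on the log2 scale, with 95% intervals of limma's fit and filled points for an adjusted p under 0.05. Divided against undivided bulge lies at -2.87 and -2.67 for Dkk3 and Sfrp1 at PD21 and at -0.13 and -0.05 at PD25.

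The direct comparison of bulge cells by division history separated the ages. At PD21 divided cells held less Dkk3 than undivided cells of the same mice, with a change of -2.87 ± 0.43 (7.34-fold lower, limma adjusted p 8.79e-05), and less Sfrp1, with -2.67 ± 0.32 (6.35-fold lower, 9.88e-06). Both were lower in 3 of 3 mice, and Wif1 was also lower in each mouse, by -0.96 ± 0.60 in the fit (0.421). Here 2 of 3 tested members and 8.28% of all genes passed. Mouse 3, the one PD21 mouse in set 2, showed the smallest difference in Dkk3, -1.60 against -3.44 and -3.59 in mice 1 and 2. In Sfrp1 mouse 3 showed -1.69 against -3.47 and -2.84. The mouse and the array set cannot be told apart in that animal, which alone gave the PD21 values of set 2. Its arrays also differed in the 3' to 5' signal ratio of the Gapdh control, read here as a mark of RNA quality. That ratio was 3.21 on its undivided and 9.674 on its divided array. In mouse 1 the ratios were 8.578 and 9.051, and in mouse 2 they were 6.191 and 5.625. The part of RNA quality in these differences was not tested.

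At PD25 no tested member passed between divided and undivided cells. Dkk3 differed by -0.13 with a 95% interval from -1.01 to 0.75, Sfrp1 by -0.05 (-0.70 to 0.61) and Wif1 by -0.85 (-2.10 to 0.40), each at a limma adjusted p of 0.999. Within mice Wif1 was lower in divided cells in 3 of 3 at PD25 too, by -1.83, -0.21 and -0.50 in mice 1 to 3, whereas Dkk3 and Sfrp1 were lower in mice 1 and 2 and higher in mouse 3. The intervals for Dkk3 and Sfrp1 leave out a fall as large as at PD21, and that for Wif1 does not. Across all genes 0 passed (0%), with 635 at an unadjusted p under 0.05 by limma. The test of the difference between the ages gave 2.75 ± 0.60 for Dkk3 (adjusted p 0.0203) and 2.62 ± 0.45 for Sfrp1 (0.0057), where 1.18% of all genes passed, and 0.11 ± 0.85 for Wif1 (0.985). Within set 1 these were 3.40 for Dkk3 (0.0321) and 2.78 for Sfrp1 (0.0156), and within set 2 they were 1.46 (0.405) and 1.81 (0.275), by limma's adjusted p. The Dkk3 call was lost in 7 of 18 fits that left out 1 array, at 2.20 to 2.73 with adjusted p of 0.0502 to 0.0699. Those arrays were undivided mouse 1 and divided mice 1 and 2 of PD21, and undivided mice 2 and 3 and divided mice 1 and 3 of PD25.

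The position of divided cells between the other fractions was read per mouse on the linear scale, with the non-bulge signal of that mouse as 0% and its undivided signal as 100%. Divided cells of PD21 mice 1 to 3 stood at 6.85%, 6.12% and 28.7% for Dkk3 and at 5.56%, 11.5% and 24.5% for Sfrp1. For Wif1 they stood at 50.3%, 12.1% and 42.5%. The sort marker Cd34 stood at 6.37%, 4.14% and 12.1% in the same mice. At PD25 the positions were 91.8%, 75% and 109% for Dkk3, 75.4%, 85.8% and 138% for Sfrp1, 14.9%, 79.4% and 30.3% for Wif1, and 58.8%, 61.9% and 136% for Cd34. On this linear scale Dkk3 and Sfrp1 thus stood nearer the non-bulge end at PD21 and nearer the undivided end at PD25. Cd34 stood lower than both at PD25 in mice 1 and 2, and Wif1 lay between the ends at both ages with wide scatter. The median position of the 708 genes higher in undivided cells at PD21 was 8.68%, 9.88% and 16.5% in mice 1 to 3, and that of the 661 such genes at PD25 was 79.8%, 78.6% and 107%. Those genes, Dkk3 and Sfrp1 among them, were picked on the same arrays that set the 0% and 100% ends. Their medians are a description only. Of the 9 bulge markers, 6 fell and 0 rose in divided against undivided cells at PD21, with a median change of -2.16. Of 6 tested markers of basal interfollicular epidermis, 2 rose and 0 fell there, with a median of 0.61. These were Ly6d, up by 2.04 ± 0.28 (limma adjusted p 4.51e-05), and Gata3, up by 1.37 ± 0.30 (0.00369). Divided PD21 cells read 12.69 ± 0.64 (SD, n = 3) for Ly6d and 11.53 ± 0.23 for Gata3, against 12.59 ± 0.42 and 11.70 ± 0.17 in non-bulge cells. The summed signal of that list overlapped between the fractions, at 66009.7 to 119922 in non-bulge, 56956.5 to 110952.3 in undivided and 69226.6 to 149225.1 in divided cells at PD21. Keratins bright in every fraction set that sum. In undivided PD21 cells Krt5 alone read 18929.9 to 46978, against 1503.7 to 1672.6 for Ly6d and 918.4 to 1516.2 for Gata3. The sum therefore could not show the changes of Ly6d and Gata3. At PD25 none of the 9 bulge and 6 epidermal markers passed between divided and undivided cells. The part of such cells in the changes of Dkk3 and Sfrp1 was not tested.

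**Figure D3:**
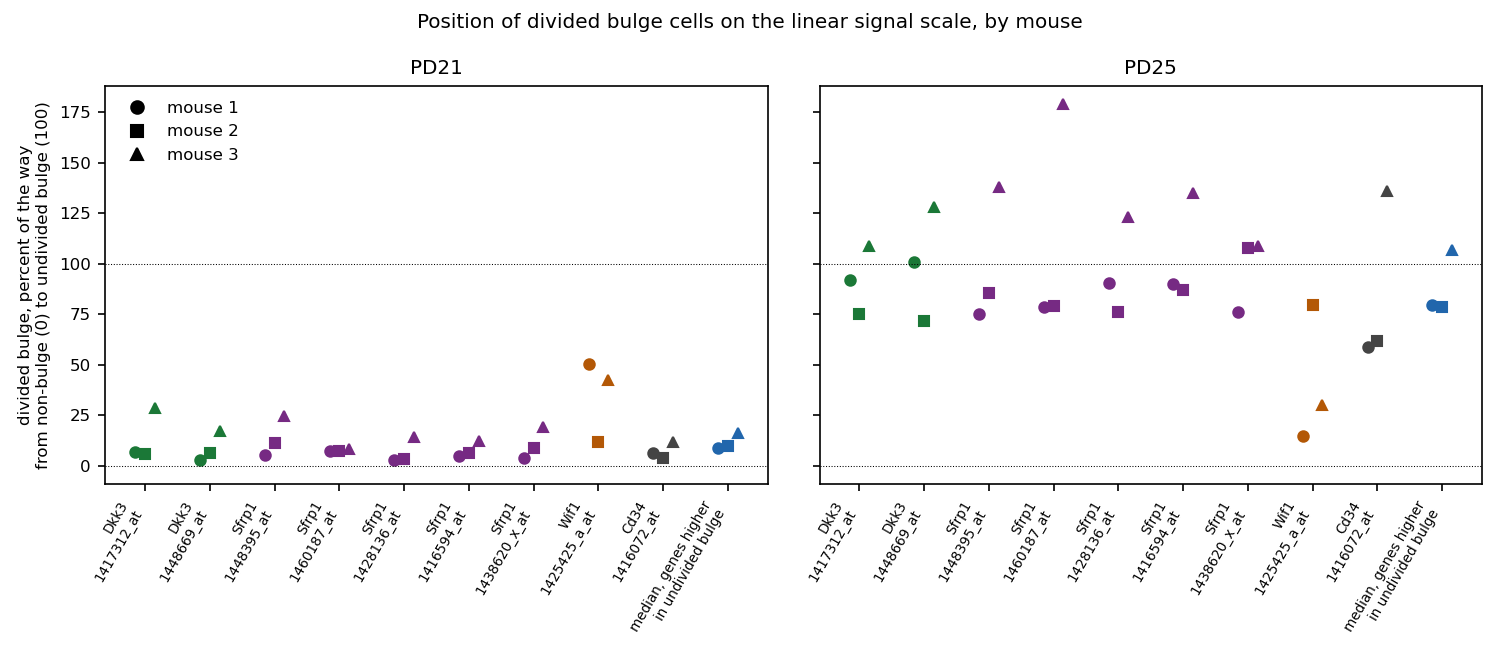
Position of divided bulge cells between non-bulge (0%) and undivided bulge (100%) on the linear signal scale, one symbol per mouse, for the member probe sets that met the filter, Cd34 and the median of all genes higher in undivided cells. For Dkk3 (1417312_at) the PD21 mice stand at 6.12% to 28.7% and the PD25 mice at 75% to 109%.

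Between the ages, Dkk3 and Sfrp1 differed in the divided fraction. From PD21 to PD25 divided cells gained 2.89 ± 0.43 in Dkk3 (7.44-fold, limma adjusted p 0.000109) and 2.32 ± 0.32 in Sfrp1 (4.99-fold, 4.57e-05), whereas Wif1 differed by 0.12 ± 0.60 (0.955). In this comparison 2 of 3 tested members and 7.84% of all genes passed. Within set 2, which held 1 PD21 mouse, Dkk3 changed by 1.47 (limma adjusted p 0.0646) and Sfrp1 by 1.86 (0.0274). Within set 1 they changed by 3.75 and 2.62. In non-bulge cells Dkk3 differed by 0.80 ± 0.43, Sfrp1 by 0.18 ± 0.32 and Wif1 by 0.45 ± 0.60 (limma adjusted p 0.998 each), so 0 of 3 tested members passed beside 0.0432% of all genes. In undivided cells they differed by 0.15 ± 0.43, -0.30 ± 0.32 and 0.01 ± 0.60 (0.979, 0.945 and 0.998 by limma), with 0 of 3 members and 0.0951% of all genes past the threshold. Those shares were 5 and 11 genes, and 511 and 929 of all genes tested stood at an unadjusted p under 0.05.

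In the fit without the filter, the 2 Dkk3 and 5 Sfrp1 probe sets all passed in undivided against non-bulge cells, with Sfrp1 changes from 3.93 ± 0.47 (1438620_x_at) to 5.78 ± 0.41 (1460187_at) at PD21 by limma. At PD25 they ran from 3.45 ± 0.47 to 5.29 ± 0.29 (1416594_at). In divided against undivided cells at PD21 all 7 passed, from -2.67 ± 0.32 (1448395_at) to -3.79 ± 0.32 (1428136_at) for Sfrp1 and at -2.87 ± 0.41 and -3.36 ± 0.52 for Dkk3. The difference between the ages in that effect passed for 6 of the 7, with 1438620_x_at at 2.70 ± 0.67 (limma adjusted p 0.0649). For the change between the ages of divided bulge minus non-bulge, 3 of the 5 Sfrp1 probe sets passed, at 2.14 to 3.51, and 1460187_at (1.61 ± 0.58, limma adjusted p 0.315) and 1438620_x_at (2.23 ± 0.67, 0.164) did not. Probe sets of a gene come from the same RNA and are not replicates. They parted in size: in divided against non-bulge cells at PD21, 1448669_at gave 1.62 ± 0.52 for Dkk3 (adjusted p 0.779 by limma) where 1417312_at gave 2.04 ± 0.41 (0.0441).

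Other genes of the pathway are described for undivided against non-bulge cells, where 11.0% of all genes passed at PD21 (708 higher and 570 lower) and 10.5% at PD25 (661 and 559). The median change over all genes was -0.05 and -0.02, the values to set each list median against. Of 13 other extracellular Wnt antagonists, 5 met the filter, and 1 rose and 1 fell at each age. Trabd2b, a membrane-anchored protease that cleaves Wnt proteins, rose by 4.05 ± 0.55 at PD21 (limma adjusted p 1.25e-05) and 4.59 ± 0.55 at PD25 (2.17e-06). Apcdd1, a membrane inhibitor that binds Wnt and LRP5, fell by 1.75 ± 0.47 (0.0142) and 1.87 ± 0.47 (0.00883). The median change of the 5 was 0.49 at PD21 and 0.46 at PD25. Dkk1, Dkk4, Sfrp4, Sfrp5, Frzb, Cer1, Sost and Notum did not meet the filter.

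Of 21 ligand and secretion genes listed, 17 were tested, and 1 rose and 5 fell at each age, with medians of -0.76 at PD21 and -0.79 at PD25. Wnt3, a ligand of the β-catenin branch, fell by 3.54 ± 0.52 at PD21 (limma adjusted p 3.16e-05) and 3.95 ± 0.52 at PD25 (6.92e-06). Wnt16 fell by 2.95 ± 0.64 and Wnt6 by 2.93 ± 0.73 at PD21, and Wnt10a fell by 2.77 ± 0.60 at PD25. Wnt5b, mostly known for signalling without β-catenin, rose by 3.36 ± 0.47 at PD25 (limma adjusted p 1.69e-05) and also passed at PD21. Of the 17 genes, 1 rose and 3 fell at both ages. At PD25 Wnt16 read 5.32 ± 0.86 (SD, n = 3) in undivided and 7.62 ± 0.41 in non-bulge cells, and Wnt6 7.19 ± 0.66 and 7.90 ± 0.88. Wnt10a read 7.28 ± 0.99 and 8.09 ± 0.67 at PD21.

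Of 17 receptors and co-receptors, 13 were tested, and 6 rose and 1 fell at PD21 and 5 rose and 1 fell at PD25, with medians of 0.99 and 0.84. Fzd2 rose by 3.99 ± 0.35 and 3.81 ± 0.35, Fzd1 by 3.52 ± 0.39 and 2.94 ± 0.39, and Fzd3 by 2.83 ± 0.44 at PD25, all Frizzled receptors, while Fzd10 fell by 3.23 ± 0.56 at PD21. The 5 that rose at PD25, Fzd3 among them, also rose at PD21, and Fzd10 fell at both ages. Of 9 genes of the R-spondin axis, which raises the amount of Wnt receptor at the cell surface, 5 were tested, and 3 rose at PD21 and 2 at PD25. Lgr5, an R-spondin receptor and a known stem cell marker, rose by 3.73 ± 0.54 and 2.44 ± 0.54, Lgr4 by 1.17 ± 0.24 and 1.49 ± 0.24, and Lgr6 by 0.99 ± 0.27 at PD21.

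Of 15 nuclear effectors and targets, 12 were tested, and 3 rose and 1 fell at each age, with medians of 0.09 and -0.06. Lef1, a DNA-binding partner of β-catenin, rose by 3.84 ± 0.58 at PD21 (limma adjusted p 4.99e-05) and 2.81 ± 0.58 at PD25 (0.00153). Tcf7l1, which mostly represses Wnt targets, rose by 2.44 ± 0.59 and 2.63 ± 0.59, and Tcf7l2 by 1.39 ± 0.26 at PD21. Tcf7l2 also rose past the threshold at PD25. Axin2, a widely used readout of β-catenin signalling, fell by 0.96 ± 0.28 at PD21 (0.0269) and by 1.93 ± 0.28 at PD25 (3.01e-05). Its signals were 2010.5 to 2753.7 in non-bulge and 947.0 to 1687.0 in undivided cells at PD21, and 1628.4 to 2937.9 and 540.9 to 611.2 at PD25. In divided against undivided cells at PD25, where the members did not pass, Axin2 differed by 1.09 ± 0.28 (limma adjusted p 0.299). At PD21, where Dkk3 and Sfrp1 were lower in divided cells, Axin2 read 11.09 ± 0.17 (SD, n = 3) in divided and 10.21 ± 0.45 in undivided cells. No gene of this list passed as higher in divided cells there.

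**Figure D4:**
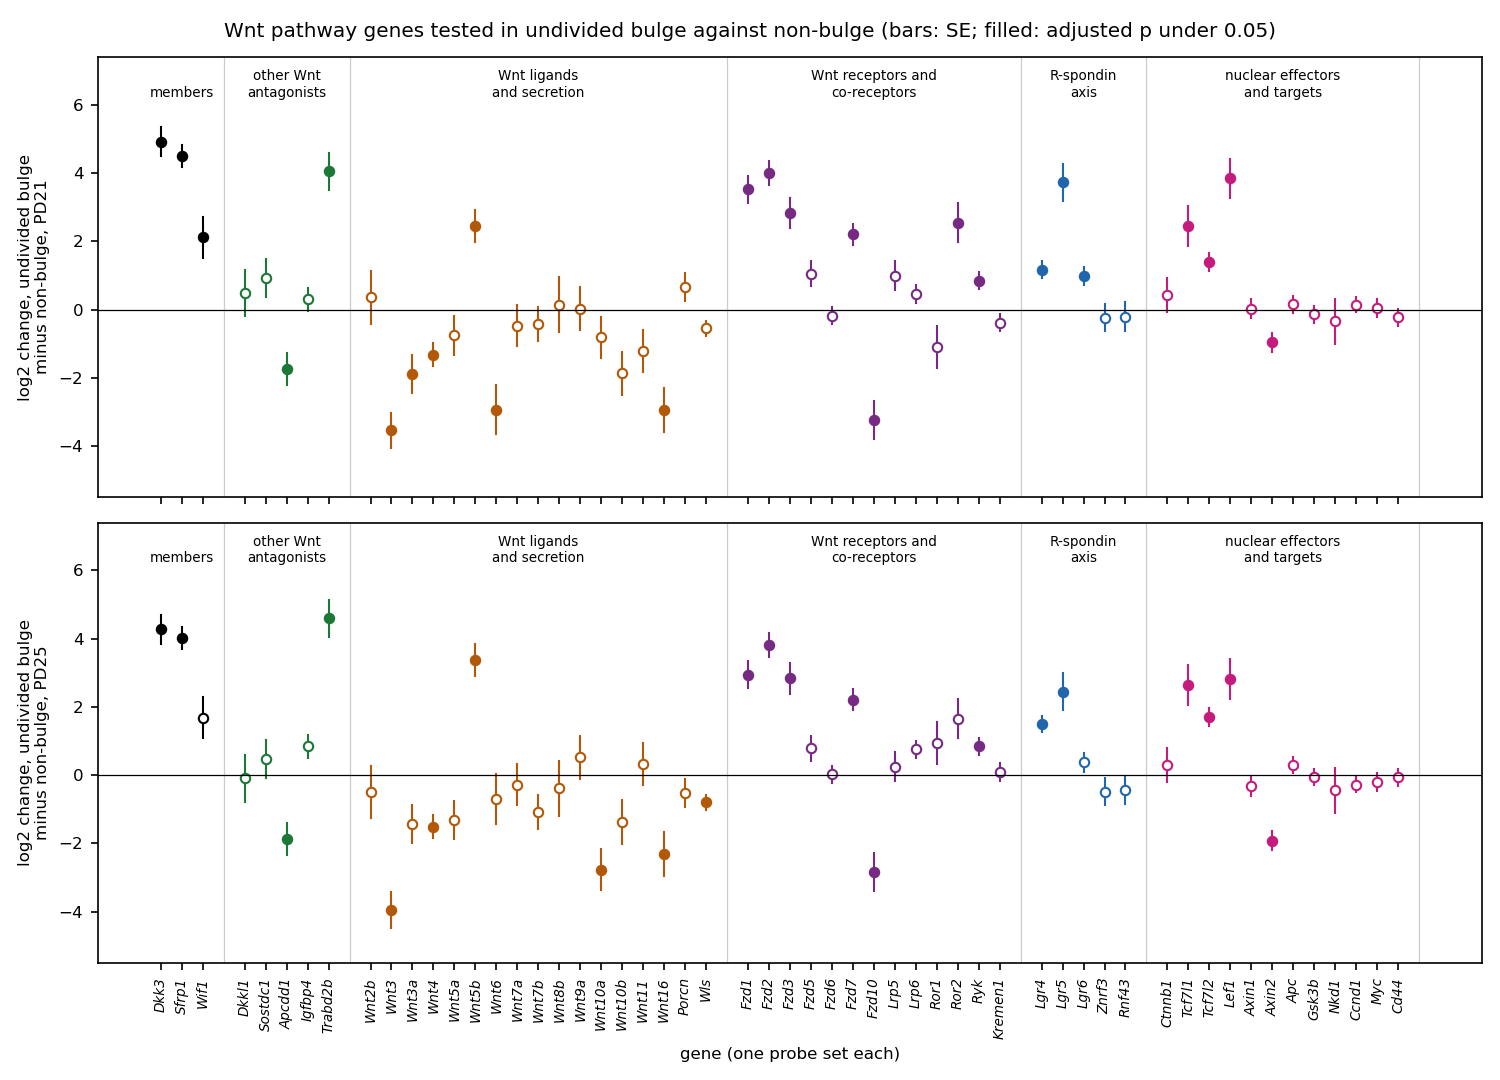
Log2 change of the tested members and the tested genes of 5 pathway lists in undivided bulge against non-bulge cells at PD21 (top) and PD25 (bottom), with bars for the SE and filled points for a limma adjusted p under 0.05. Dkk3 and Sfrp1 lie above 4 at both ages, Wnt3 lies at -3.54 and -3.95 and Axin2 at -0.96 and -1.93.

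The genes most like each member over the 18 arrays were named by Pearson's r on the log2 scale, as a description, since the arrays share mice and fractions. Dkk3 was closest to Timp2 (r = 0.985), Kirrel (0.984), Shisa2 (0.984), Tbx1 (0.982) and Klhl22 (0.98). Sfrp1 was closest to Sorbs2 (0.989), Rnf152, Timp2 and Shisa2 (0.982 each) and Lhx2 (0.976). Timp2 and Shisa2 were thus on both lists, and Dkk3 and Sfrp1 correlated with each other at 0.962. Wif1 was closest to Gcnt1 (0.898), Lef1 (0.886), Glrb (0.88), Chat (0.876) and Sox13 (0.872), and it correlated with Dkk3 at 0.79 and with Sfrp1 at 0.73. For the dim Dkk2 and Sfrp2 the leading genes were Zc3hav1l (0.797), Zfp790, Alkbh5, Man1a2 and Slc16a13, and Oas1b (0.751), Cpt1a, Rbpjl, Man1c1 and Trpc4, values that rest on signals below the array medians.

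Markers of other cells were read beside the members. Of 13 markers of dermal fibroblasts and the dermal papilla, a tissue known to express Wnt inhibitors, 5 were tested, and Col1a1 and Fbln1 were higher in undivided cells (4.09 ± 0.55 and 2.45 ± 0.39 at PD21, limma adjusted p 1.23e-05 and 9.18e-05). Vim, Col1a2 and Col3a1 did not pass there at either age. On the log2 scale Col1a2 read 5.63 ± 0.37 (SD, n = 3) in undivided and 6.54 ± 0.64 in non-bulge cells at PD21. Col3a1 read 4.85 ± 0.52 and 5.23 ± 0.75, and Vim 9.73 ± 0.67 and 8.47 ± 2.42. In divided against undivided cells at PD21, 1 of the 5 was higher and 1 lower. Fbln1 alone gave a signal of 2217.1 to 3538.1 in undivided cells at PD21. The summed signal of the list was 939.3 to 3327.9 in non-bulge, 3740.1 to 5542.5 in undivided and 2359.1 to 3705.6 in divided cells at PD21. At PD25 it was 1228.1 to 1649.7, 4050.7 to 5382.2 and 4634.6 to 4960.8. In divided against non-bulge cells 1 of the 5 was higher at PD21 (Col1a1, 3.55 ± 0.55, limma adjusted p 0.00358) and 4 at PD25 (Col1a1, Col1a2, Col3a1 and Fbln1), with medians of 1.23 and 2.22. Of the 13, Vim and Fbln1 exceeded the array median in 18 arrays, Col1a1 in 14, Col3a1 in 9, Col1a2 in 8, Alpl and Vcan in 2 and Dcn in 1, while Lum, Pdgfra, Twist2, Sox2 and Corin did so in 0. Melanocyte markers, 7 in number, summed to 615.7 to 845.1 in non-bulge and 1069.5 to 3908.7 in undivided cells at PD21 and to 246.7 to 617.5 and 1080.3 to 1324.2 at PD25, and in divided cells to 499.3 to 1233 and 1172.6 to 1981.2. Mitf exceeded the array median in 18 arrays, Pmel in 13, Dct in 8, Sox10 in 3, Tyrp1 in 1 and Tyr and Mlana in 0. Of the 4 tested, Mitf was higher in undivided cells at PD21 (2.27 ± 0.47, limma adjusted p 0.00152), and Mitf and Dct were at PD25 (2.00 ± 0.47, 0.00492, and 2.22 ± 0.58, 0.0114). Pmel and Sox10 did not pass there at either age. On the log2 scale Pmel read 6.73 ± 0.83 (SD, n = 3) in undivided and 7.75 ± 0.60 in non-bulge cells at PD21. It read 7.24 ± 1.16 and 7.44 ± 0.71 at PD25. Sox10 read 6.25 ± 0.50 and 5.37 ± 1.24 at PD21, and 5.05 ± 0.32 and 5.34 ± 0.74 at PD25. Mitf alone gave a signal of 843.9 to 3508.9 in undivided cells at PD21. Mitf was also lower in divided than in undivided cells at PD21 (-2.08 ± 0.47, limma adjusted p 0.00474). No endothelial marker of 5 met the filter. The part of such cells in the members' values was not tested.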

How the data were processed

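RNA of sorted skin cells (5 ng per fraction, amplified with Ovation chemistry per the labels' protocols) was hybridised to Affymetrix mouse arrays, 1 array per fraction and mouse. The authors deposited 1 linear intensity per probe set and array, made with GCOS per the submitters' processing notes (version not given in the sources used here). Array medians were 60.3 to 116.6, and the number of mice limits the precision. Signals were turned into log2(signal + 16) with no further normalisation. The platform annotation gave a single symbol for 34945 of 45101 probe sets, several for 932 and none for 9160. Probe sets above their array median in at least 3 of 18 arrays were kept, and each gene was read from its brightest probe set on average.

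A single limma fit (version 3.58.1, R 4.3.3) held all 6 group means, with moderated variances that followed the mean level. It had 12 residual degrees of freedom, and the prior added 11.2. The script was tested on simulated data. Fold changes, p-values and intervals at 95% come from that fit over 11569 genes. Mouse numbers pair fractions of 1 animal within an age. Deviations of such arrays from their group means correlated at 0.0745 to 0.462 over 18 pairs, and the mouse as a block was an alternative. Other alternatives were the pseudocount, quantile normalisation, the filter, the mean of a gene's probe sets, the fit without a trend, array weights, fewer groups in the fit, and each array left out. Array sets, as a block and within each set, were added after seeing the data.

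Named were the members, the 5 genes with the highest correlation to each, up to 3 passing genes per pathway list and age with the largest change, and always Axin2, Lef1 and Cd34. Marker genes and untested antagonists are named as members of their lists. Members, lists and tests were chosen with earlier results of these data known. Present calls were left out, and genes were read from single-symbol probe sets only. Gene positions, for which the files name no build, served only to set the upstream windows against the annotated genes.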

Additional observations from a re-analysis of the deposited data

Results flagged for a closer look

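Several values differed between the ages by a test of the difference itself. The change of divided minus undivided bulge from PD21 to PD25 was 2.75 ± 0.60 on the log2 scale for Dkk3 (limma adjusted p 0.0203) and 2.62 ± 0.45 for Sfrp1 (0.0057). The Dkk3 call was lost in 7 of 18 fits that left out 1 array, and in limma's fit without the trend (adjusted p 0.0907). Within set 1 the changes were 3.40 for Dkk3 and 2.78 for Sfrp1, and within set 2 they were 1.46 and 1.81. The change of divided bulge minus non-bulge was 2.14 ± 0.45 for Sfrp1 (0.0148), where 3 of its 5 probe sets passed in the fit of all probe sets. Dkk3 signals of divided cells were 579.3 to 3155.3 at PD21 and 7630.9 to 10783.6 at PD25, and those of Sfrp1 were 1573.4 to 2918.5 and 9746.1 to 11848.0.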

How the results depend on the processing

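Each array left out once and 13 other settings gave 31 alternatives per comparison. Of 1116 recomputed changes of Dkk3, Sfrp1 and Wif1, 1024 kept their direction and side of the threshold, 47 fell below it, 11 passed it anew and 34 changed sign, none of the latter among values past the threshold. Dkk3 and Sfrp1 passed in all 31 for undivided against non-bulge at both ages and for divided against non-bulge at PD25. With 3 mice per group and 2 array sets, small differences of Wif1 could not be resolved, and Dkk2 and Sfrp2 had no signal above the array medians to test. The cause of the shifts below was not tested.

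Members passing for divided against non-bulge at PD21 numbered 2, but 1 with the mean of all probe sets, 0 without the variance trend, 1 with array weights, 0 with only the groups compared, 1 within set 1, 1 within set 2 and 0 to 2 with an array left out. For divided against undivided bulge at PD21 they numbered 0 within set 2, and for PD25 against PD21 in divided bulge 1 within set 2. For the difference between the ages of divided minus undivided bulge they numbered 1 without the trend, 0 within set 2 and 1 to 2 with an array left out. For that of divided bulge minus non-bulge, 1 in the fit reported, they numbered 2 with a pseudocount of 64, 0 without the trend, 2 with array weights, 2 with the mouse as replicate block, 2 with the array set as a block, 0 within set 1, 0 within set 2 and 0 to 2 with an array left out.

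The replicate block by mouse changed no call of a member other than those of Wif1 in undivided against non-bulge at PD25 and Dkk3 in the age difference of divided bulge minus non-bulge, both of which passed with it (adjusted p 0.0307 and 0.00364 by limma).

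Changes of sign were as follows, all in values below the threshold. In divided against undivided bulge at PD25 Sfrp1 was 0.04 with quantile normalisation, 0.11 within set 2 and -0.25 to 0.16 with an array left out, and Dkk3 was -0.23 to 0.02. In non-bulge PD25 against PD21, within set 2, Dkk3 was -0.02 and Sfrp1 -0.55, and Sfrp1 was -0.18 to 0.43 with an array left out. In undivided PD25 against PD21 Dkk3 was -0.03 with the set as a block and -0.04 to 0.31 with an array left out, Sfrp1 was 0.06 within set 2, and Wif1 was -0.10 with quantile normalisation, -0.15 with the set as a block, -1.07 within set 2 and -0.32 to 0.48 with an array left out. In divided PD25 against PD21 Wif1 was -0.01, -0.04 and -0.50 under the same settings and -0.34 to 0.51 with an array left out. In the age difference of divided minus undivided bulge Wif1 was -0.86 within set 1 and -0.36 to 0.50 with an array left out. In that of undivided bulge minus non-bulge Dkk3 was 0.03 and Sfrp1 0.60 within set 2, and Wif1 was 0.77 within set 1 and -0.77 to 0.03 with an array left out. In that of divided bulge minus non-bulge Wif1 was -0.79 to 0.06 with an array left out.

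Genes passing over the alternatives ranged from 409 to 1926 around 1278 for undivided against non-bulge at PD21, from 640 to 1922 around 1220 at PD25, from 1 to 49 around 21 for divided against non-bulge at PD21, from 413 to 1434 around 1026 at PD25, from 94 to 1533 around 958 for divided against undivided at PD21 and from 0 to 23 around 0 at PD25. They ranged from 5 to 12, 5 to 80 and 59 to 1226 for age in non-bulge, undivided and divided cells (5, 11 and 907), and from 0 to 506, 0 to 3 and 0 to 451 for the age differences of divided minus undivided, undivided minus non-bulge and divided minus non-bulge (137, 0 and 189).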
